A study of Danio rerio with 24 samples.

Results

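The genes described here are the zebrafish metallothioneins mt2 and mtbl, the zinc-sensing transcription factor gene mtf1, the zinc exporter gene slc30a1a and the zinc importer gene slc39a10. They were chosen by name, as the rows of the FPKM table whose NCBI Gene numbers (100174951, 569445, 195821, 393853 and 393644, in that order) carry these symbols, and they are 5 of 39974 genes. FPKM scales the sequenced fragments of a gene to its length and to the depth of its library. All 5 passed the filter on low values, an FPKM of at least 0.5 in at least 4 libraries, as did 22682 genes in all. The wide spread of mt2 between libraries was already known when the genes were chosen.

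Metallothioneins are small, cysteine-rich proteins that bind zinc, copper and cadmium, and their transcripts are widely used as a readout of metal exposure in fish. MTF1 binds DNA when zinc in the cell rises, and in mice and fish it drives transcription of metallothionein genes and of the zinc exporter gene SLC30A1, while it holds back SLC39A10. Metals that displace zinc from proteins, and oxidative stress, are known to act on the same factor.

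RNA was sequenced from whole larvae of the wildtype AB strain, 5 days after fertilization. All groups were kept in 0.3x Danieau's solution, and exposures ran from 4 hours after fertilization to collection. The 6 groups were vehicle, sodium arsenite at 1 µM, sodium arsenite at 10 µM, uranyl nitrate (a soluble uranium salt) at 30 µg/L, uranyl nitrate at 300 µg/L, and sodium arsenite at 1 µM together with uranyl nitrate at 30 µg/L, called the mixture here. There were 4 libraries per group, each from a pool of 10 larvae, so a value is a mean over animals and over all tissues, and fewer cells of a type cannot be told apart from less RNA per cell. The libraries held 15456854 to 22987080 reads, recovered from the steps of the FPKM values. Markers of 10 tissues were checked against the label whole larvae. In 7 of the lists every marker had a median FPKM of at least 0.5. The kidney and ionocyte list had 6 of 7 such markers, the leukocyte list 5 of 6 and the red cell list 4 of 6. Of the markers that failed the filter, hbba1 was listed at 0 in all 24 libraries, hbaa1 reached 0.82 FPKM and mpeg1.1 reached 0.20 FPKM.

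None of the 5 genes was called in any of the 10 comparisons by limma, at a Benjamini-Hochberg adjusted p under 0.05 over all genes. Of all genes tested, 0.132% were called for arsenite at 1 µM against vehicle, 0.727% for arsenite at 10 µM, 0% for uranyl nitrate at 30 µg/L, 1.77% for uranyl nitrate at 300 µg/L and 0.406% for the mixture. The share was 0.176% between the arsenite doses and 6.65% between the uranyl nitrate doses. It was 0.00441% for the mixture against arsenite at 1 µM, 0.238% for the mixture against 30 µg/L uranyl nitrate, and 0.0353% for the departure from additivity (the log2 change of the mixture less the summed log2 changes of its components). At an unadjusted p under 0.05, 2 of the 50 pairs of a gene and a comparison passed (4%), both of them mtf1, beside 10.5% of such pairs over all genes. limma voom on the recovered reads also called 0 and also had 2 at an unadjusted p under 0.05. At each of these shares, fewer than 1 of 5 genes would be called at the rate of all genes, so the count of 0 does not set these 5 apart.

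The levels of the 5 genes, compared per length, were ordered by the median of the 24 libraries. slc30a1a stood highest with a median of 28.3 FPKM, followed by mtbl with 23.0, mt2 with 12.4, slc39a10 with 8.59 and mtf1 with 2.89 FPKM. Single libraries departed from this order, such as vehicle replicate 4 with 0.16 FPKM of mtbl and 3.29 FPKM of mtf1. The spread between libraries set the metallothioneins apart from the other 3 genes. The highest library was 31.2 times the lowest for mt2 and 172 times for mtbl, against 1.55 times for mtf1, 1.43 times for slc30a1a and 1.31 times for slc39a10. Within groups, mt2 had a residual SD of 1.23 on the log2 scale, which 99.8% of all genes tested lay below. The residual SD of mtbl was 1.65, with 99.95% of genes below it, while those of mtf1, slc30a1a and slc39a10 were 0.113, 0.112 and 0.0870 beside a median of 0.138 over all genes.

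mt2 was low in vehicle larvae and higher in most exposed libraries. Replicates 1 to 4 of vehicle had 7.21, 9.26, 7.87 and 9.88 FPKM of mt2. With arsenite at 1 µM the values were 6.50, 11.15, 198.3 and 11.49 FPKM. With arsenite at 10 µM they were 18.36, 22.26, 16.10 and 14.09 FPKM. All 4 libraries at the higher arsenite dose therefore lay above all 4 vehicle libraries, while at the lower dose 3 lay above and 1 below the vehicle range.

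With uranyl nitrate at 30 µg/L, mt2 stood at 9.93, 202.7, 11.24 and 11.37 FPKM in replicates 1 to 4. At 300 µg/L it stood at 15.14, 15.78, 14.85 and 13.52 FPKM. In the mixture it stood at 14.72, 12.20, 12.59 and 8.79 FPKM. Both uranyl nitrate groups lay above the whole vehicle range, at the lower dose by a margin of 9.93 against 9.88 FPKM between the nearest libraries, and 3 of the 4 mixture libraries did so. Groups whose 4 libraries all lay above all vehicle libraries were found for 3.73% of genes at 10 µM arsenite, for 2.27% at 30 µg/L and for 4.66% at 300 µg/L uranyl nitrate, beside 1.90% at 1 µM arsenite and 2.21% in the mixture. Among the 5 genes, mt2 was the 1 gene with such a group.

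**Figure D1:**
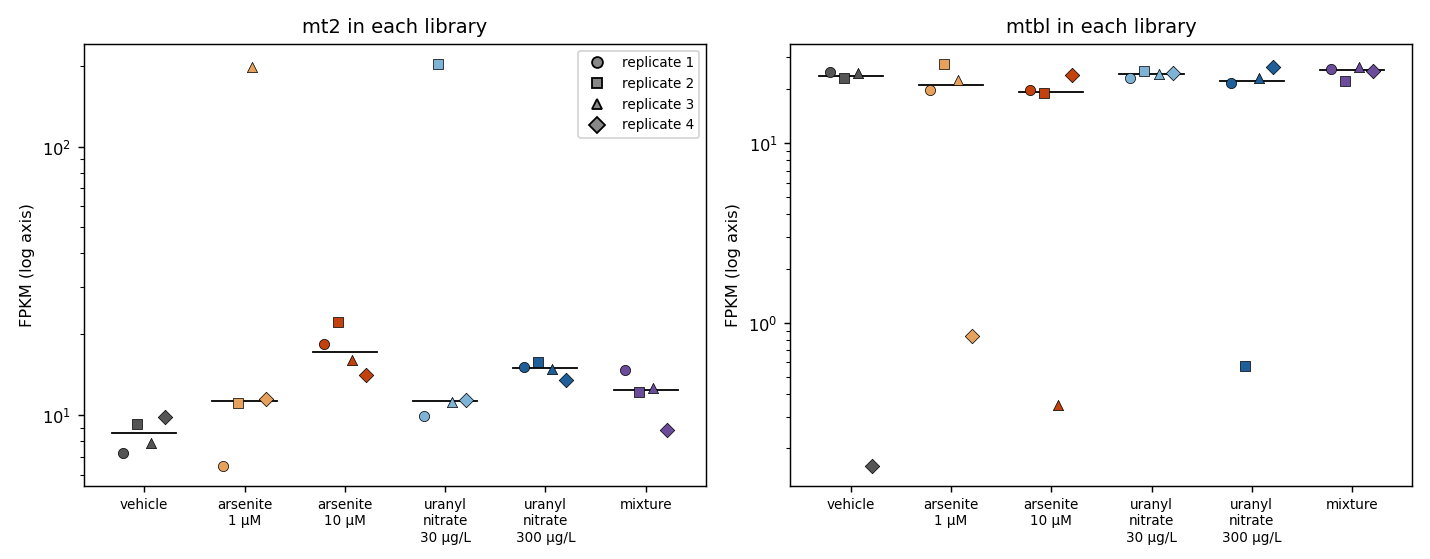
FPKM of mt2 (left) and mtbl (right) on a log axis in each of the 24 libraries, by group; symbols give the replicate number and horizontal lines the group median. 2 libraries stand above 100 FPKM of mt2, and 4 libraries stand under 1 FPKM of mtbl while the other 20 lie between 18.95 and 27.52.

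By group median, mt2 ran from vehicle (8.56 FPKM) through uranyl nitrate at 30 µg/L (11.3), arsenite at 1 µM (11.3), the mixture (12.4) and uranyl nitrate at 300 µg/L (15.0) to arsenite at 10 µM (17.2 FPKM). Vehicle and uranyl nitrate at 30 µg/L did not overlap, and every other pair of neighbours in that order overlapped. In two-sided exact permutation tests of 4 against 4 libraries, mt2 differed from vehicle with p = 0.0286 for arsenite at 10 µM and for both doses of uranyl nitrate. This is the smallest p that the design allows, and it is unadjusted for the 25 such tests made over the 5 genes. The exact permutation p of mt2 was 0.257 for arsenite at 1 µM and 0.0857 for the mixture. For uranyl nitrate at 30 µg/L the exact p rose to 0.0571 without replicate 2 and to between 0.257 and 0.371 without any 1 of the vehicle libraries. Without a vehicle library the log2 difference itself stayed at 1.27 to 1.41, beside 1.34 with all libraries. The groups were then of unequal size, and splits that put replicate 2 in the smaller group can exceed the observed difference.

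In the limma fit of all 24 libraries, which holds the 2 libraries of mt2 above 100 FPKM, the standard error of mt2 was 0.799 for every exposure. The log2 fold change of mt2 against vehicle, on the log2(FPKM + 1) scale, was 0.96 (95% interval -0.70 to 2.62, adjusted p = 0.738) for arsenite at 10 µM. It was 0.74 (-0.92 to 2.39, adjusted p = 0.716) for uranyl nitrate at 300 µg/L and 0.44 (-1.22 to 2.10, adjusted p = 0.905) for the mixture. For the groups that hold those libraries it was 1.20 (-0.46 to 2.86, adjusted p = 0.854) with arsenite at 1 µM and 1.34 (-0.32 to 3.00, adjusted p = 0.769) with uranyl nitrate at 30 µg/L. These intervals span from below 0 to more than a doubling in all 5 exposures, so the pooled fit resolved no direction for mt2.

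The call for mt2 depended on which libraries entered the estimate of spread. limma fits of only the groups compared, in which neither library above 100 FPKM takes part, called mt2 higher at 10 µM arsenite (adjusted p = 0.0312) and at 300 µg/L uranyl nitrate (adjusted p = 0.026). These fits called 58 and 96 of all 22682 genes. The 2 libraries above 100 FPKM were next left out of the fit of all groups, a choice made after their mt2 values were seen. The standard error for these comparisons fell to 0.16. Leaving libraries out by their own mt2 value lowers the residual SD of mt2 by construction, here from 1.23 to 0.24. The intervals and adjusted p of that fit are therefore not a valid measure of the spread of mt2. The log2 fold changes of mt2 at 10 µM arsenite and 300 µg/L uranyl nitrate were again 0.96 and 0.74. They could not change, since neither these groups nor vehicle held a library left out. As ratios of FPKM + 1 to vehicle, these were 1.95-fold (95% interval 1.54 to 2.45, adjusted p = 0.00324) and 1.66-fold (1.32 to 2.10, adjusted p = 0.0246). In these 2 comparisons that fit called 165 and 415 of all 22682 genes. The mixture, at 1.36-fold (1.08 to 1.71, adjusted p = 0.300), was not called, nor was uranyl nitrate at 30 µg/L at 1.25-fold (0.97 to 1.60, adjusted p = 0.745). For arsenite at 1 µM the log2 fold change of mt2 was 0.14 (95% interval -0.22 to 0.50, adjusted p = 0.927), also not called. All exposures share the same 4 vehicle libraries.

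The dose and mixture comparisons of mt2 also turned on the same libraries. Between the arsenite doses, the log2 fold change of mt2 at 10 µM over 1 µM was -0.24 (SE 0.799, adjusted p = 0.987) with all libraries and 0.82 (SE 0.172, adjusted p = 0.0843) without the 2 high ones. At 300 over 30 µg/L uranyl nitrate it was -0.61 (SE 0.799, adjusted p = 0.730) and 0.42 (SE 0.172, adjusted p = 0.181). The departure from additivity was -2.10 (SE 1.13, adjusted p = 0.724) with all libraries and -0.01 (SE 0.244, adjusted p = 0.999) without the high ones. None of these 3 comparisons was called in either limma fit. Both dose estimates changed sign, and the departure from additivity moved from -2.10 to -0.01. Leaving out the highest mt2 library of each lower-dose group raises all 3 estimates and lowers their standard errors by construction. The second fit therefore cannot decide between these values, and no dose order and no interaction of the metals was resolved for mt2.

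Of the 10 tissue marker lists, the summed kidney and ionocyte list lay wholly above vehicle where the fits of the groups compared called mt2. Its summed level was 29.5 to 34.4 FPKM in vehicle, 35.9 to 40.8 FPKM with arsenite at 10 µM and 34.9 to 40.4 FPKM with uranyl nitrate at 300 µg/L, with no overlap with vehicle in either. It was 30.8 to 39.9 FPKM with arsenite at 1 µM and 33.7 to 35.8 with uranyl nitrate at 30 µg/L. In the mixture it was 30.4 to 41.1 FPKM. These groups all overlapped vehicle, with medians of 34.2, 34.9 and 36.1 FPKM beside 30.5 FPKM in vehicle. Most of the difference at 10 µM arsenite and 300 µg/L uranyl nitrate lay in 1 of its 7 markers, slc12a10.2, an ion cotransporter gene. The mean of slc12a10.2 was 10.49 FPKM (SD 1.63, n = 4) in vehicle. It was 15.76 FPKM (SD 1.74) with arsenite at 10 µM and 15.17 FPKM (SD 1.64) with uranyl nitrate at 300 µg/L. Both groups lay above vehicle without overlap, as did those of 3.73% and 4.66% of all genes. slc12a10.2 was called in neither (limma adjusted p = 0.0924 and 0.0792). Its means were also above vehicle in the other exposures, which overlapped vehicle. They were 14.58 FPKM (SD 3.5) at 1 µM arsenite, 13.16 (SD 1.95) at 30 µg/L uranyl nitrate and 14.97 (SD 2.78) in the mixture. Of the other 6 markers, lrp2a did not overlap vehicle at 300 µg/L uranyl nitrate (2.92 to 3.31 against 2.24 to 2.91 FPKM). All others overlapped vehicle in both exposures. The mean of foxi3a was 5.71 FPKM at 300 µg/L uranyl nitrate against 6.37 FPKM in vehicle. With arsenite at 10 µM, ca15a had 6.07 against 6.28 FPKM and slc20a1a had 1.91 against 1.99 FPKM. The remaining means of these 6 markers lay above vehicle in both exposures. foxi3b was listed at 0 in 1 library and the other 6 markers were above 0 in every library. The retina list did not overlap vehicle with uranyl nitrate at 30 µg/L, at 2780 to 2896 against 2507 to 2701 FPKM. The part of kidney, ionocyte or retina cells in the level of mt2 was not tested.

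**Figure D2:**
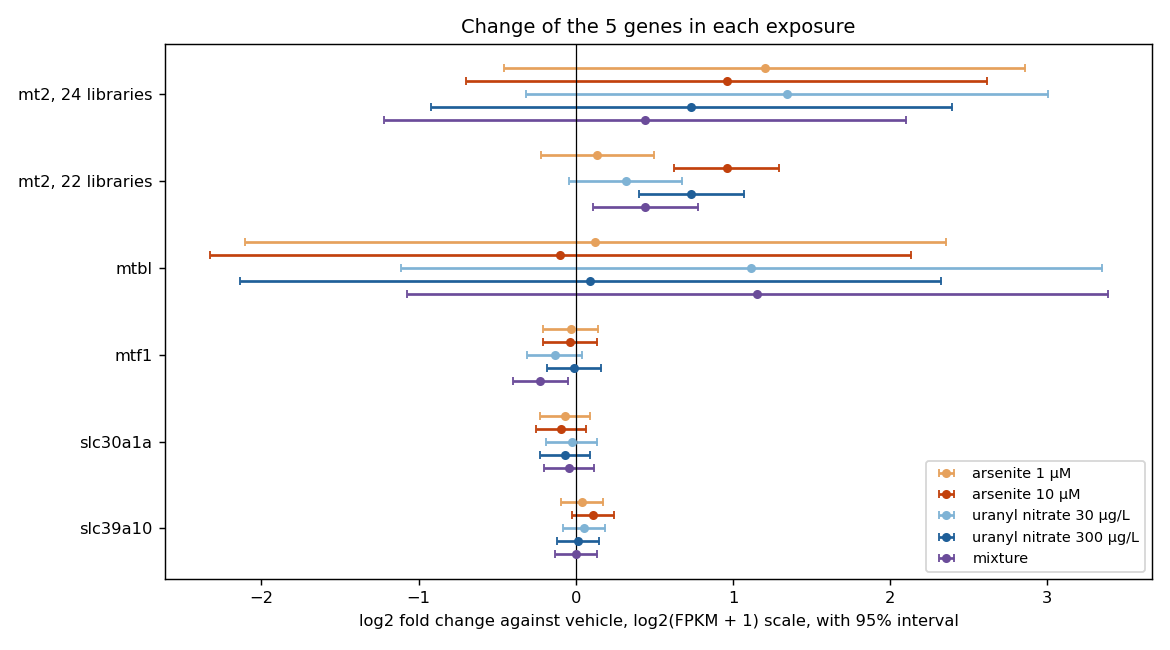
Log2 fold change of each gene against vehicle on the log2(FPKM + 1) scale (horizontal axis) from limma, with 95% intervals as bars and 1 colour per exposure; mt2 is shown with all 24 libraries and without the 2 libraries above 100 FPKM. The intervals of mt2 and mtbl with all libraries are many times wider than those of mtf1, slc30a1a and slc39a10.

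The 2 libraries above 100 FPKM were replicate 3 of arsenite at 1 µM and replicate 2 of uranyl nitrate at 30 µg/L. They held 4244 and 4969 reads of mt2, so counting error is small beside the gap. The other 22 libraries ran from 6.50 to 22.3 FPKM, and the lower of the 2 stood 8.91-fold above the highest of them. mtbl was at 22.46 and 25.04 FPKM in these 2 libraries, and slc30a1a, the exporter gene under the same factor in mice, was at 26.23 and 28.62 FPKM, inside the range of the other libraries in both cases. Ranked from the highest of 24 libraries, the kidney and ionocyte sum was 19th and 16th in these 2 libraries, the skin sum 3rd and 1st, the exocrine pancreas sum 1st and 9th and the retina sum 2nd and 8th. The ranks were 8 and 10 for liver, 17 and 10 for intestine, 15 and 20 for skeletal muscle, 9 and 19 for neuron, 24 and 14 for leukocyte and 15 and 7 for red cell. Their part in the mt2 level was not tested.

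mtbl showed the reverse form of this pattern, with a few libraries far below the rest. Replicates 1 to 4 of vehicle had 24.82, 22.91, 24.39 and 0.16 FPKM of mtbl. The values were 19.72, 27.52, 22.46 and 0.84 FPKM with arsenite at 1 µM and 19.69, 18.95, 0.35 and 23.81 FPKM with arsenite at 10 µM. In each of these 3 groups 3 libraries lay near one another and 1 was near 0.

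For uranyl nitrate, mtbl stood at 23.13, 25.04, 24.21 and 24.43 FPKM at 30 µg/L and at 21.55, 0.57, 22.90 and 26.57 FPKM at 300 µg/L. In the mixture it stood at 25.77, 22.17, 26.48 and 25.12 FPKM. The 4 low libraries, which include a vehicle library, held 2 to 10 reads of mtbl against 217 to 396 in the other 20. The lowest of those 20 stood 22.6-fold above the highest of the low ones, and the 20 averaged 23.6 FPKM (SD 2.36).

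No exposure was called for mtbl, and its intervals with all libraries were as wide as -1.11 to 3.35 on the log2 scale for uranyl nitrate at 30 µg/L and -2.33 to 2.13 for arsenite at 10 µM. Its exact permutation p ran from 0.257 to 0.83 over the 5 exposures. Without the 4 low libraries, a choice made after the mtbl values were seen, the log2 fold changes of mtbl against vehicle lay between -0.21 (SE 0.105, adjusted p = 0.61) for arsenite at 10 µM and 0.05 (SE 0.098, adjusted p = 0.952) for the mixture. The 20 libraries thus held no called difference of mtbl either, though leaving libraries out by their mtbl value lowers these standard errors by construction.

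A search over all genes, added after the values of mt2 and mtbl had been seen, asked how common such separate levels were. A gene was counted where its largest gap between neighbouring libraries, ordered by level, was at least 2 on the log2(FPKM + 1) scale, and this held for 25 of 22682 genes (0.11%). At a gap of at least 1 it held for 161 genes and at a gap of at least 3 for 11 genes. mtbl (gap 3.44) was 7th and mt2 (gap 3.10) was 10th by this measure. The median gene length the authors' values imply was 1196 bp for the 25 genes and 2264 bp for all genes tested, and 24 of the 25 were at or under the median of all genes. The lengths for mt2 and mtbl were 1104 and 712 bp.

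The libraries on the smaller side differed from gene to gene, with each library on the smaller side for 1 to 6 of the 25 genes. The parvalbumin gene pvalb9, coding for a calcium-binding protein, was the 1 other gene of the 25 that split off the same 2 libraries as mt2. pvalb9 was at 14.6 and 22.4 FPKM in them and at 0.22 to 1.22 FPKM in the other 22. No other gene of the 25 split off the same 4 libraries as mtbl, and genes with smaller gaps were not compared in this way. Some splits shared libraries in part. These overlaps were picked out after the splits were seen, and the number expected by chance was not computed. Both libraries high in mt2 were also among the 4 high in mia and the 6 low in ndufb5. All 4 libraries low in mtbl were among the 9 high in polr1d, a gene that reached at most 7.245 FPKM. The ribosomal protein genes rpl39 and rpl30, which all growing cells use, were among the 25 and were named after their values were seen. rpl39 was at 8.32 to 17.1 FPKM in 9 libraries and at 526 to 823 FPKM in 15, and rpl30 was at 6.92 to 16.5 FPKM in 22 libraries and at 231 and 446 FPKM in 2. The 2 libraries high in rpl30 were among the 4 low in mtbl. What sets these levels was not tested.

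**Figure D3:**
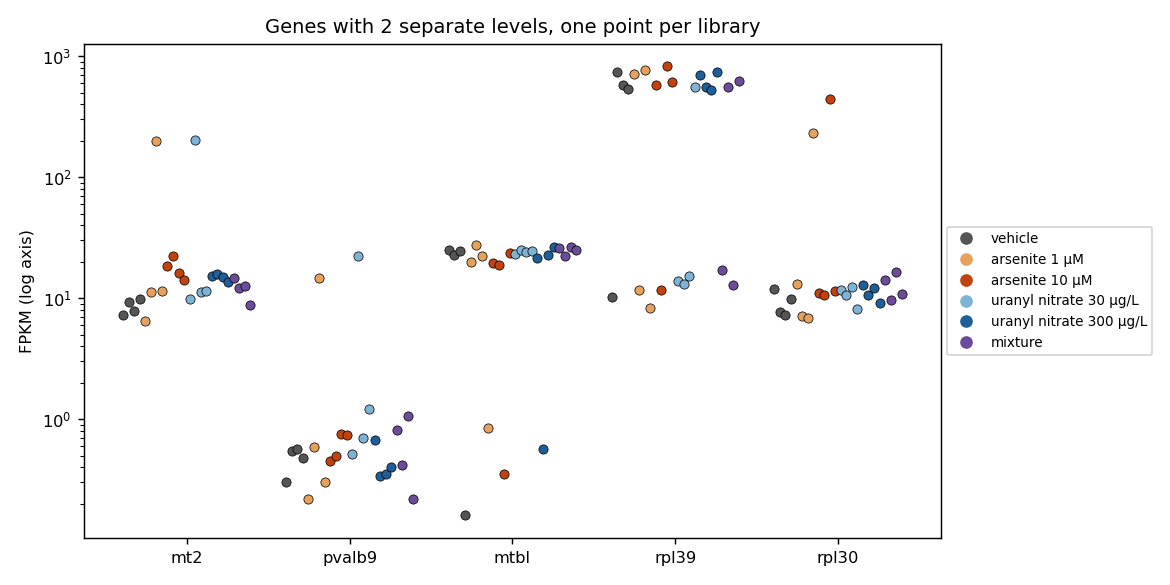
FPKM on a log axis of 5 genes with 2 separate levels, with 1 point per library coloured by group. The same 2 libraries stand high for mt2 and pvalb9, while mtbl, rpl39 and rpl30 each split the libraries in another way and across groups. The 2 libraries high in rpl30 are among the 4 low in mtbl, an overlap picked out after the values were seen.

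mtf1, the gene of the zinc-sensing factor, varied little. Its values in replicates 1 to 4 were 3.25, 3.20, 2.64 and 3.29 FPKM in vehicle, and 2.27, 2.83, 2.72 and 2.19 FPKM in the mixture. The 2 groups overlapped, with 2 mixture libraries below all vehicle libraries. The log2 fold change of mtf1 in the mixture was -0.23 (95% interval -0.40 to -0.05, limma adjusted p = 0.307). This interval excluded 0, as no other interval against vehicle did in the fit of all libraries, and the difference was not called. The exact permutation p was 0.0857.

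In the single exposures mtf1 stood at 2.93, 3.31, 2.93 and 2.84 FPKM with arsenite at 1 µM and 2.48, 3.39, 2.90 and 3.25 FPKM with arsenite at 10 µM. It stood at 2.92, 2.60, 2.88 and 2.52 FPKM with uranyl nitrate at 30 µg/L and 3.40, 2.89, 3.26 and 2.72 FPKM at 300 µg/L. Each of these groups overlapped vehicle, and the log2 fold changes of mtf1 lay between -0.13 (-0.31 to 0.04) at 30 µg/L uranyl nitrate and -0.01 (-0.18 to 0.16) at 300 µg/L. Each library held 132 to 231 reads of mtf1. The mixture was also lower than arsenite at 1 µM at a log2 difference of -0.19 (limma adjusted p = 0.556), which was not called.

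slc30a1a, whose product moves zinc out of the cell, stood at 29.5 FPKM (SD 1.66, n = 4) in vehicle, with a range of 28.07 to 31.78. Its group means were 28.1 (SD 1.57) and 27.8 FPKM (SD 4.26) with arsenite at 1 and 10 µM, 28.9 (SD 1.54) and 28.1 FPKM (SD 2.33) with uranyl nitrate at 30 and 300 µg/L, and 28.6 FPKM (SD 1.00) in the mixture. All 5 exposed means lay below the vehicle mean, and every exposed group overlapped vehicle. The widest departure was at 10 µM arsenite, where single libraries ran from 23.57 to 33.65 FPKM and the log2 fold change was -0.10 (95% interval -0.26 to 0.06, adjusted p = 0.725). The intervals of slc30a1a excluded a rise of more than 0.13 on the log2 scale in any exposure.

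slc39a10, whose product moves zinc into the cell, stood at 8.43 FPKM (SD 0.521, n = 4) in vehicle. Its mean was highest with arsenite at 10 µM, at 9.18 FPKM (SD 0.661), where 3 of 4 libraries lay above all vehicle libraries and replicate 2, at 8.20 FPKM, did not. The log2 fold change of slc39a10 there was 0.11 (95% interval -0.02 to 0.24, adjusted p = 0.586, exact permutation p = 0.143). The other exposed means were 8.67 FPKM (SD 0.399) at 1 µM arsenite, 8.77 (SD 0.554) and 8.52 (SD 0.854) at 30 and 300 µg/L uranyl nitrate and 8.43 (SD 0.272) in the mixture. All 5 exposed groups of slc39a10 overlapped vehicle.

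**Figure D4:**
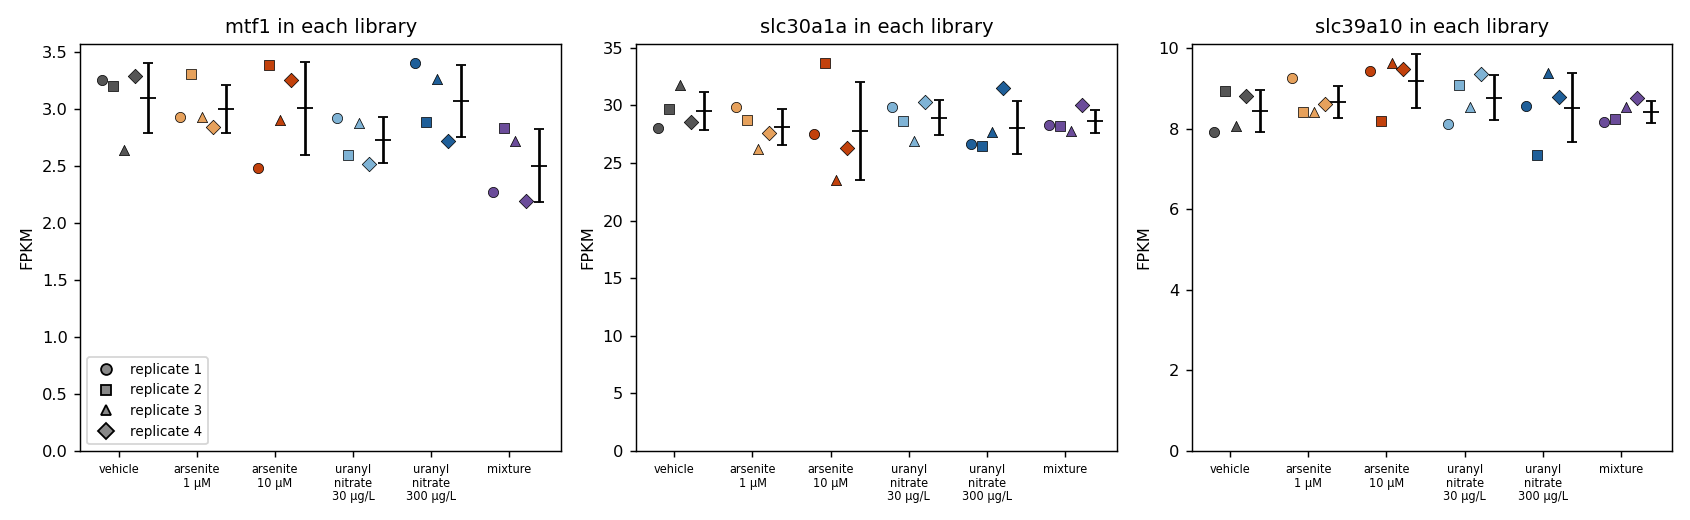
FPKM of mtf1, slc30a1a and slc39a10 in each library by group, on axes that start at 0; bars beside the points give the group mean and SD of 4 libraries. Every exposed group overlaps vehicle for all 3 genes.

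The wider families of zinc transporters and the copper handling genes were described by their counts. Of 10 zinc exporter genes of the SLC30 family (slc30a1a included), 1 was called higher and 0 lower at 10 µM arsenite, and 0 were called in the other 4 exposures. At this threshold 0.727% of all genes were called at 10 µM arsenite and 0.132% at 1 µM. The shares were 0% and 1.77% at 30 and 300 µg/L uranyl nitrate and 0.406% in the mixture. Of 11 zinc importer genes of the SLC39 family tested (slc39a10 included) and of 14 copper handling genes, 0 were called in any exposure against vehicle by limma. The smallest limma adjusted p of the copper genes against vehicle was 0.0545, at 300 µg/L uranyl nitrate. Their log2 fold changes there ran from -0.45 to 0.23. At an unadjusted p under 0.05 the exporter list had 2 genes at each of the higher doses and 0 in the other 3 exposures. The importer list had 2 genes in each of the 5 exposures, and the copper list had 3 at 300 µg/L uranyl nitrate, 1 each at 10 µM arsenite and 30 µg/L uranyl nitrate and 0 elsewhere. Of all genes, 6.74% passed this limit at 1 µM arsenite, 10.3% at 10 µM, 7.14% at 30 µg/L uranyl nitrate, 16.6% at 300 µg/L, and 10.7% did so in the mixture; the lists were not tested against these shares. limma voom on the recovered reads called the same 1 exporter gene and 0 genes of the other lists against vehicle. It called 166 of all 22682 genes at 10 µM arsenite. The median log2 fold change at 10 µM arsenite was 0.03 for the exporters, -0.01 for the importers and 0.00 for the copper genes, beside 0.01 for all genes.

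slc30a10, a manganese exporter in humans and zebrafish, was the exporter gene called at 10 µM arsenite. Its values were 6.73, 7.26, 6.39 and 8.22 FPKM in vehicle and 9.19, 9.33, 9.56 and 10.84 FPKM at 10 µM arsenite, with no overlap. The log2 fold change of slc30a10 was 0.40 (SE 0.0888, limma adjusted p = 0.0335). In the other 4 exposures its mean lay between 6.92 and 7.46 FPKM, beside 7.15 FPKM in vehicle. The call of slc30a10 was lost in the fit of only the groups compared (adjusted p = 0.13) and in 7 of the 8 fits without 1 library of these groups (adjusted p up to 0.144, without vehicle replicate 3).

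**Figure D5:**
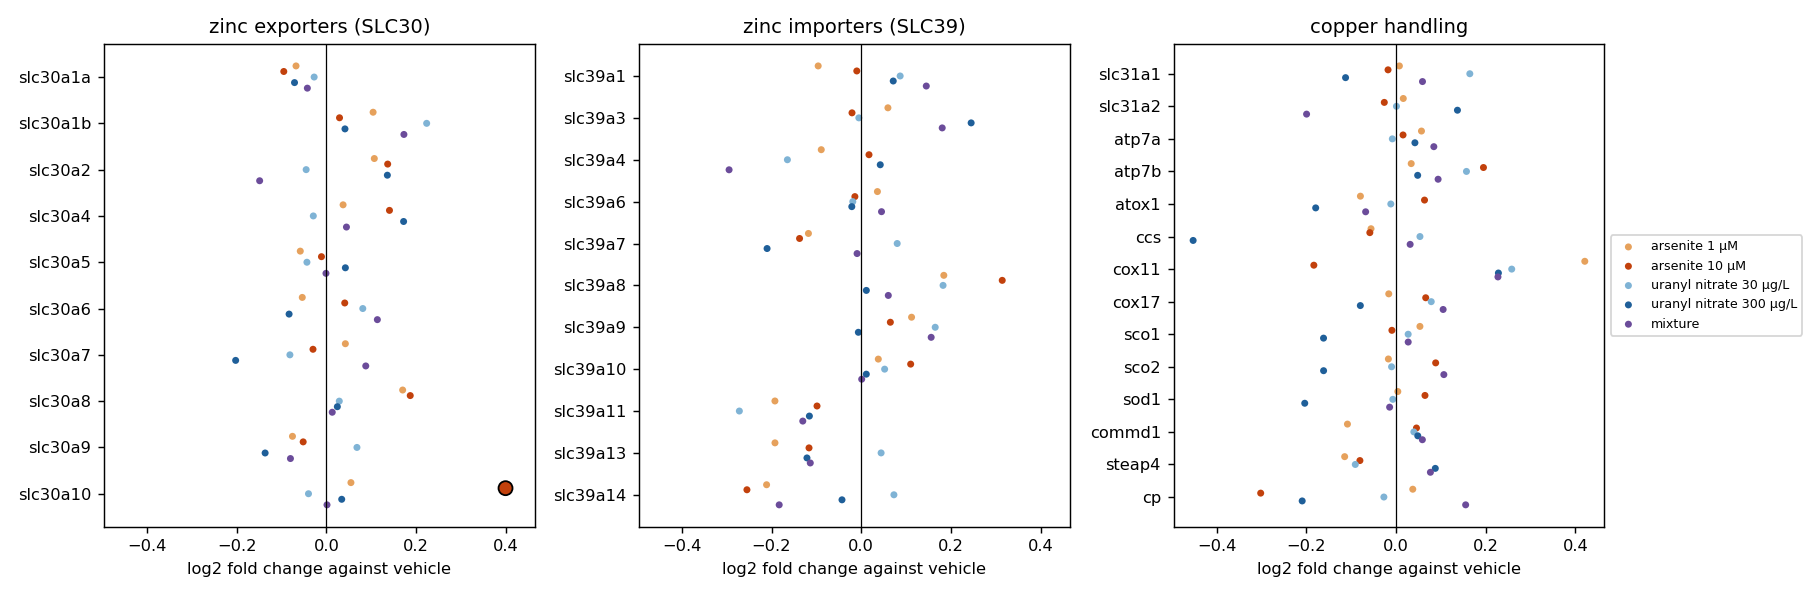
Log2 fold change against vehicle (horizontal axis) of each tested gene of the zinc exporter, zinc importer and copper handling lists, with 1 colour per exposure; large outlined points are called by limma. The 1 outlined point is slc30a10 at 10 µM arsenite.

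Between the uranyl nitrate doses, where 6.65% of all genes were called, 4 genes of these lists were called lower at 300 than at 30 µg/L and 0 higher. slc30a9, which acts in mitochondrial zinc transport in human cells, had 12.30, 12.36, 12.17 and 12.46 FPKM at 30 µg/L and 10.44, 10.13, 10.49 and 11.21 FPKM at 300 µg/L. slc39a7, which releases zinc from the endoplasmic reticulum in human cells, had 21.13, 19.55, 20.98 and 20.74 FPKM at 30 µg/L and 16.12, 16.00, 17.38 and 17.18 FPKM at 300 µg/L. The dose groups of neither gene overlapped, as for 8.26% of all genes in this direction, and the log2 fold changes were -0.20 (limma adjusted p = 0.0176) for slc30a9 and -0.29 (adjusted p = 0.0189) for slc39a7.

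The copper importer gene slc31a1 (mean 9.66 FPKM, SD 0.588, at 30 µg/L and 7.81 FPKM, SD 0.619, at 300 µg/L) and the copper and zinc superoxide dismutase gene sod1 (159 FPKM, SD 5.35, and 139 FPKM, SD 6.11) were the other two. Their log2 fold changes were -0.28 for slc31a1 (limma adjusted p = 0.0361) and -0.20 for sod1 (adjusted p = 0.0323). All 4 calls were lost in at least 1 of the fits without 1 library of these groups. The calls of slc31a1 and sod1 were lost in most of these fits, and those of slc39a7 and slc30a9 in fewer. The adjusted p reached 0.055 for slc30a9 without replicate 2 of 300 µg/L, 0.0594 for slc39a7 without replicate 3 of 30 µg/L, 0.108 for slc31a1 without replicate 1 of 300 µg/L and 0.101 for sod1 without replicate 4 of 300 µg/L. The call of slc31a1 was also lost with the same total per library (adjusted p = 0.0639), and that of sod1 without a variance trend (adjusted p = 0.0528).

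Over the 24 libraries, the 5 genes were only loosely related to one another, in correlations that share library depth and group. The Spearman correlation of mt2 was -0.46 with slc30a1a, -0.23 with mtbl, 0.17 with slc39a10 and -0.02 with mtf1. That of mtbl with slc30a1a was 0.38.

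By the fixed rule, the genes most like mt2 by Spearman correlation over the 24 libraries were fam222aa (0.80), hpca (0.74), tdh2 (0.74), htatip2 (0.74) and nap1l4b (0.73). By Pearson correlation the same genes were at 0.61, 0.30, 0.59, 0.33 and 0.46, so the likeness of hpca and htatip2 to mt2 fell by more than 2 times with the measure. With the group means taken out they were pvalb9 (0.76), nap1l4b (0.72) and eef1a1l1 (0.64). The genes most like slc30a1a over the 24 libraries were si:ch73-382f3.1 (0.75), asah1b (0.70) and p4ha2 (0.66), at 0.64, 0.74 and 0.53 by Pearson correlation. Those most like mtbl were trnat-agu (0.76), LOC100151353 (0.73) and tbp (0.72), at 0.655, 0.38 and 0.47 by Pearson correlation. All of these genes were picked as the highest over many genes in 24 libraries, and their correlations are a description with no test. pvalb9 correlated with mt2 at 0.94 by Pearson and 0.44 by Spearman over the 24 libraries, a difference that goes with the 2 libraries in which both stood high.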

How the data were processed

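The authors deposited 1 table of FPKM values, with 24 libraries as columns and genes named by NCBI Gene number, and 0 columns were left unused. HISAT2 2.1.0, HTSeq 0.6.1 and the build GRCz11 are listed, with no roles, per the submitters' processing notes. Polyadenylated RNA was copied with random primers, per the labels' protocols. The strand setting and the handling of reads shared between similar genes are not given in the sources used here.

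Symbols came from a RefSeq table (GRCz12tu, names only), which named 32044 (80.2%) of the genes. Whole reads were recovered from the FPKM steps (100.0% of values above 0 within 0.01 read) and used for depth and for limma voom. Depth intervals cover counting error only.

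The main test was limma 3.58.1 in R 4.3.3 on log2(FPKM + 1), after the filter of 0.5 FPKM in 4 libraries, with 6 group means, a variance trend, 18 residual degrees of freedom and Benjamini-Hochberg adjustment over 22682 genes. A fold on this scale understates changes of low genes. Exact permutation tests were two-sided. Lists name every gene called in at least 1 comparison, and likeness is by highest Spearman correlation. The labels number biological replicates, but do not say whether pools came from separate spawnings. The 5 genes and the lists were chosen with earlier results of these data known. Alternatives were other pseudocounts, filters, scalings and variance models, a replicate block, fits of only the groups compared, and fits without single libraries. Among 60 pairs of libraries sharing a number across groups, 2 correlated above 0.1, so numbers were not taken as pairs.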

Additional observations from a re-analysis of the deposited data

Results flagged for a closer look

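Of 30 groups of 4 libraries examined (5 genes in 6 groups), 5 held a library above Dixon's 95% critical value. The value compared was the gap to the nearest other library divided by the range of the group, in FPKM. For normally distributed values, chance gives about 1 in 20 such groups, and whether these FPKM values are so distributed was not tested. The wide spread of mt2 was already known when the genes were chosen. The count of 5 is therefore a description and not a test against that rate. mt2 was at 198.3 FPKM in replicate 3 of arsenite at 1 µM and at 202.7 FPKM in replicate 2 of uranyl nitrate at 30 µg/L, far above the other 3 libraries of each group. mtbl was at 0.16 FPKM in replicate 4 of vehicle, far below the other 3. mtf1 was at 2.64 FPKM in replicate 3 of vehicle, below the other 3 by a small absolute step. slc39a10 was at 8.2 FPKM in replicate 2 of arsenite at 10 µM, also below the other 3.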

How the results depend on the processing

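Over 990 refits of the 5 genes (19 settings for each of 9 comparisons and 27 for the departure from additivity), 986 stayed on the same side of the threshold, and 71 uncalled values changed sign. The 4 exceptions were mt2. Its log2 fold change was 0.96 at 10 µM arsenite and 0.74 at 300 µg/L uranyl nitrate, called in the fit of only the groups compared and in the fit without the 2 libraries above 100 FPKM. Each of these fits called 1 of the 5 genes in place of 0, since the spread no longer held those libraries. The fit without the 2 libraries left them out by their own mt2 value, which lowers the spread of mt2 by construction. Its adjusted p is not a valid measure of that spread, so its calls do not add to those of the other fit. Of all 22682 genes, the fits of only the groups compared called 58 and 96 in these 2 exposures. The fit without the 2 libraries called 165 and 415. The exact permutation p of mt2 was 0.0571 for uranyl nitrate at 30 µg/L with the same total per library. Without single libraries it ran from 0.0286 to 0.629 for arsenite at 1 µM, from 0.0286 to 0.371 for uranyl nitrate at 30 µg/L and from 0.0286 to 0.143 for the mixture, where 0.0286 is the smallest possible. The replicate block changed no call of the 5 genes and gave mt2 an adjusted p of 0.741 at 10 µM arsenite. Same-numbered libraries correlated at a median of 0.000 (other numbers 0.004), and 8 of 24 libraries correlated best with their own number. The planned count models were not run on these FPKM values, and limma voom took their place after the data were seen. Counting is least precise for mt2, mtf1 and mtbl, with as few as 111, 132 and 2 reads in a library.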
